A study of Mus musculus with 6 samples.

Results

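The 51 genes described here carry out mitosis: they drive cells into it, build the spindle, hold the spindle assembly checkpoint, attach and separate chromosomes, and split the cell. They were listed by name as drivers of entry and as spindle, kinetochore and condensin genes, with earlier results of these data known. All 51 were found among the 23219 gene symbols measured, and all 51 passed the filter on low values that left 13977 genes. RNA was sequenced from whole kidneys of mouse embryos at embryonic day 17, with 3 kidneys per genotype. The controls (numbered 5, 7 and 11 by the labels) carried floxed Mta2 on both alleles (Mta2flx/flx). The mutants (6, 8 and 9) carried the same floxed alleles and Six2Cre (Six2Cre Mta2flx/flx). Both groups thus carried floxed Mta2, only the mutants carried Cre, and effects of Cre and of Mta2 loss cannot be told apart. Mta2 is a subunit of the NuRD chromatin remodelling complex, and Six2 marks the nephron progenitors, so ureteric, stromal, endothelial and blood cells of a mutant kidney are expected to keep Mta2. The labels do not say whether the 3 kidneys of a group came from separate embryos, so the p-values measure the spread between these kidneys.

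A cell enters mitosis when cyclin B with the kinase Cdk1 becomes active, after Cdc25 phosphatases have removed inhibitory phosphates. The spindle checkpoint then holds the anaphase-promoting complex until every kinetochore is attached, after which separase cuts cohesin, sister chromatids part and the cell divides. In the embryonic kidney the nephron progenitors, the ureteric tips and the stroma all divide, and differentiated tubule cells divide less. In whole kidneys, a change in the share of dividing cells and a change in mitotic RNA per cell cannot be told apart. Many of these genes share promoter elements: the cell cycle genes homology region (CHR, TTTGAA), which the DREAM and MuvB complexes use, and the CCAAT box, which NF-Y binds.

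RefSeq promoter windows of 300 bases (250 before and 50 after each start, GRCm38.p6) were found for 42 of the 51 genes. The genes with no window matched were Cdc25c, Smc4, Aurkb, Ccna2, Spc24, Tpx2, Foxm1, Kif20a and Incenp. On either strand, TTTGAA was present for 30 of the 42 genes (71.4%), against 20.2% of 27025 symbols with a promoter in the table. CCAAT was present for 31 (73.8%) against 41.1%, and both motifs for 26 (61.9%) against 7.97%. The variant TTTAAA was present for 9 (21.4%) against 14.9%. All 51 genes passed the filter on low values, and of the genes that passed it 10171 had a promoter. Among these the shares were 14.2% for TTTGAA, 43.0% for CCAAT, 6.05% for both and 11.3% for TTTAAA. The other mitosis genes examined held TTTGAA for 37 of 84 (44.0%), and the G1/S and replication genes for 7 of 40 (17.5%). A match of these letters is a description and does not show that a factor binds there. Below are the 200 bases before the start for 5 genes whose values come later: the kinase gene Cdk1, Ube2c of the anaphase-promoting pathway, the midzone gene Prc1, the condensin gene Smc2, and Mki67, with the largest swing between control kidneys in BPM. Capitals mark TTTGAA and CCAAT, or TTCAAA and ATTGG where they lie on the opposite strand.
Cdk1 (chr10:69352913-69353112, minus strand): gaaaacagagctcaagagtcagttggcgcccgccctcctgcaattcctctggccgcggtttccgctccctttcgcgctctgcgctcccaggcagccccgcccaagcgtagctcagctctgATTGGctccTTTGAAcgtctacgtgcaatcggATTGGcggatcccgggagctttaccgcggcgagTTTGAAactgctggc
Ube2c (chr2:164769729-164769928, plus strand): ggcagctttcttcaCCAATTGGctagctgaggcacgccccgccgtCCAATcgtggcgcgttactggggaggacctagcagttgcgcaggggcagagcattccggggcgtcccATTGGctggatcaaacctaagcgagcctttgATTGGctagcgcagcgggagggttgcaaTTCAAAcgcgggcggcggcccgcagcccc
Prc1, the second of its starts (chr7:80294276-80294475, plus strand): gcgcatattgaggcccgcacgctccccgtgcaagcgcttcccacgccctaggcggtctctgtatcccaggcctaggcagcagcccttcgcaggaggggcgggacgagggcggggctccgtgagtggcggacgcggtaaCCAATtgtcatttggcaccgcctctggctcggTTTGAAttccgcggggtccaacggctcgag
Smc2 (chr4:52439021-52439220, plus strand): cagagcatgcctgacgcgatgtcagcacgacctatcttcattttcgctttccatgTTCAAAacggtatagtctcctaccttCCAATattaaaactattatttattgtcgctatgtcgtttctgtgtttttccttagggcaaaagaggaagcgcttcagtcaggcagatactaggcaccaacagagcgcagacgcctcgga
Mki67 (chr7:135716380-135716579, minus strand): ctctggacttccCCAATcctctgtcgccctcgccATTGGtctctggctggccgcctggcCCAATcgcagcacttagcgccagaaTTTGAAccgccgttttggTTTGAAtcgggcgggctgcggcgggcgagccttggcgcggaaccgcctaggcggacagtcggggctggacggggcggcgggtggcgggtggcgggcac
In Cdk1 the CHR copies began at -71 and -15, counted from the start, and CCAAT boxes on the opposite strand at -80 and -48. In Ube2c the CHR, on the opposite strand, began at -29, and a CCAAT box overlapped one on the other strand from -186. Prc1 had its CHR at -30 and a CCAAT box at -62. Mki67 held CHR copies at -116 and -98, and Smc2 held one at -145 on the opposite strand. The median log2 fold change, mutant over control, was 0.27 for the 30 genes with TTTGAA and 0.27 for the 12 without. It was 0.27 for the 31 genes with CCAAT and 0.27 for the 11 without, 0.27 for the 9 with TTTAAA and 0.28 for the 33 without, and 0.26 for the 26 with both TTTGAA and CCAAT against 0.33 for the other 16.

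Values are given as BPM, the covered bases of a gene after each library was set to 1000000 in all, because the deposited values are base coverage and not read counts. Between 794 and 1235 megabases were covered per library. Levels between genes are compared per kilobase of annotated exon, taken as the union over all transcripts of a gene. On that scale Mki67, which codes for the proliferation antigen Ki-67, stood highest in the controls at 65.8 ± 37.4 (SD, n = 3) BPM per kb. Ccnb2 at 42.8 ± 6.23, Ccna2 at 41.0 ± 6.30 and Top2a at 40.7 ± 4.01 BPM per kb came next, and these neighbours did not differ beyond their spread. Tpx2 followed at 32.8 ± 5.27 BPM per kb. The lowest were Kif18a at 2.56 ± 1.06, Cdc25c at 3.05 ± 0.780 and Cdca8 at 4.35 ± 0.125 BPM per kb. This order depends on the length used. The exon union is 9013 bases for Top2a and 5177 for Cdca8, but their longest transcripts are 5221 and 3358 bases. For Mki67 both lengths are 10061 bases. The order by transcript length was not tested. The targeted gene Mta2 was at 219.7, 198 and 210.5 BPM in controls 5, 7 and 11 and at 139.6, 189 and 146 BPM in mutants 6, 8 and 9. Its means were 209 ± 11.0 (SD, n = 3) BPM in controls and 158 ± 26.6 BPM in mutants, or 75.5% of control, with no overlap (exact two-sided permutation p = 0.1, the smallest that 3 against 3 can give). All 9 kidney markers were covered, and their sums were 4431 to 5350 BPM in controls and 2422 to 3701 BPM in mutants.

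Control 11 stood apart on these genes. It was the lowest of the 6 kidneys for 25 of the 51 (49.0%), against 24.0% of all genes kept. It lay below the mean of controls 5 and 7 for 36 of the 51, by a median log2 difference of -0.28 (all genes -0.07), by over 1 for 9 of them, with extremes of -2.08 for Pttg1 and 1.15 for Spc24. The library differed more widely too. It covered 16646 symbols, against 14467 to 15003 in the others, and Lars2 took 2.30% of its bases, against 0.0739 to 0.482% in the others. Across 13161 genes, its deviation from the gene mean correlated with the GC content of the longest transcript at r = 0.34, against -0.18 to 0.01 in the other 5 libraries. With the log2 length of that transcript it correlated at r = -0.25, against 0.01 to 0.07, and among the 51 genes at r = -0.38, against 0.04 to 0.23; length was not corrected for. The 51 genes had a median GC of 46.6%, against 49.7% for all genes. Among the 51 genes, the deviation from the gene mean went with GC at r = 0.47 in control 11, against -0.41 to 0.10 in the others. It was -0.27 in control 5 and -0.41 in control 7. Control 11 minus controls 5 and 7 went with GC at r = 0.51, a difference that holds the opposite trends of both sides. These correlations run across genes of the same libraries and are descriptions. Counts of these genes are therefore given with and without control 11, and after a correction for GC. Across the 51 genes the log2 fold change, mutant over control, went with GC at r = -0.06 in all 6 kidneys. Without control 11 it went with GC at r = 0.38, so leaving out that kidney did not free these fold changes of a GC trend.

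**Figure D1:**
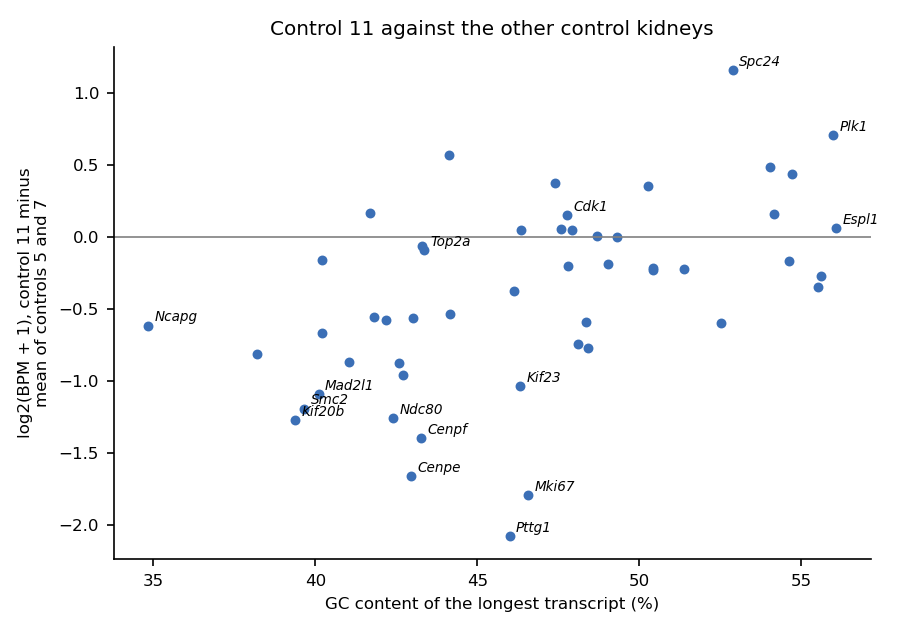
Each point is 1 of the 51 genes: GC content of its longest transcript (x axis, %) against its log2(BPM + 1) in control 11 minus the mean of controls 5 and 7 (y axis). The points lie lower on the left than on the right, 36 of the 51 lie below 0, and the lowest, Pttg1 at -2.08, is near the middle of the GC range.

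The comparison of mutant with control kidneys asks what differs after Six2Cre acted on Mta2. Most mitosis genes lay somewhat higher in the mutants, by amounts that were small beside the spread between kidneys. The log2 fold change was above 0 for 44 of 51 genes (86.3%), against 52.6% of all genes kept, with a median of 0.27 against 0.02. It ranged from -0.36 for Kif18a to 0.71 for Smc2. None of the 51 passed limma's test with Benjamini-Hochberg adjustment (adjusted p from 0.854 to 0.998), and neither did any of the 13977 genes tested (0%). At an unadjusted p below 0.05 limma gave 783 genes, of which 405 (2.90% of those tested) were higher in mutants, and 1 of the 51 (1.96%), Smc2. The 3 mutant values lay above all 3 control values for 8 of the 51 genes (15.7%), against a background of 6.10%. They lay below for 0 of the 51, against 5.12%.

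Without control 11 the tilt was smaller. Then 34 of 51 genes (66.7%) were above 0, against 49.3% of all genes, with a median of 0.09 against -0.01. Of these 51 genes, 11 (21.6%) lay higher without overlap and 2 (3.92%) lower, against backgrounds of 10.2% and 11.1%, and 0 passed the adjusted test, against 0.0585% of genes. At an unadjusted limma p below 0.05 there were then 2 of the 51 (3.92%), below the 5.77% of all genes: Cdk1, higher, and Spc25, lower. Without mutant 9 the count above 0 was also 34, with a median of 0.25. After the GC correction it was 39, with a median of 0.20. Then 6 of the 51 (11.8%) lay higher without overlap and 0 lower, against 11.8% of all genes in either direction. Cdk1, Prc1 and Racgap1 overlapped after that correction, and Mad2l1 no longer did. The part of transcript length in the result was not tested, nor was that of GC content beyond this correction.

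The mean over the 51 genes, in log2 units relative to the mean of controls, was 0.16, 0.10 and -0.27 in controls 5, 7 and 11. In mutants 6, 8 and 9 it was 0.29, 0.09 and 0.31. Mutants 6 and 9 lay above every control, and mutant 8 lay below controls 5 and 7, so the groups overlapped.

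**Figure D2:**
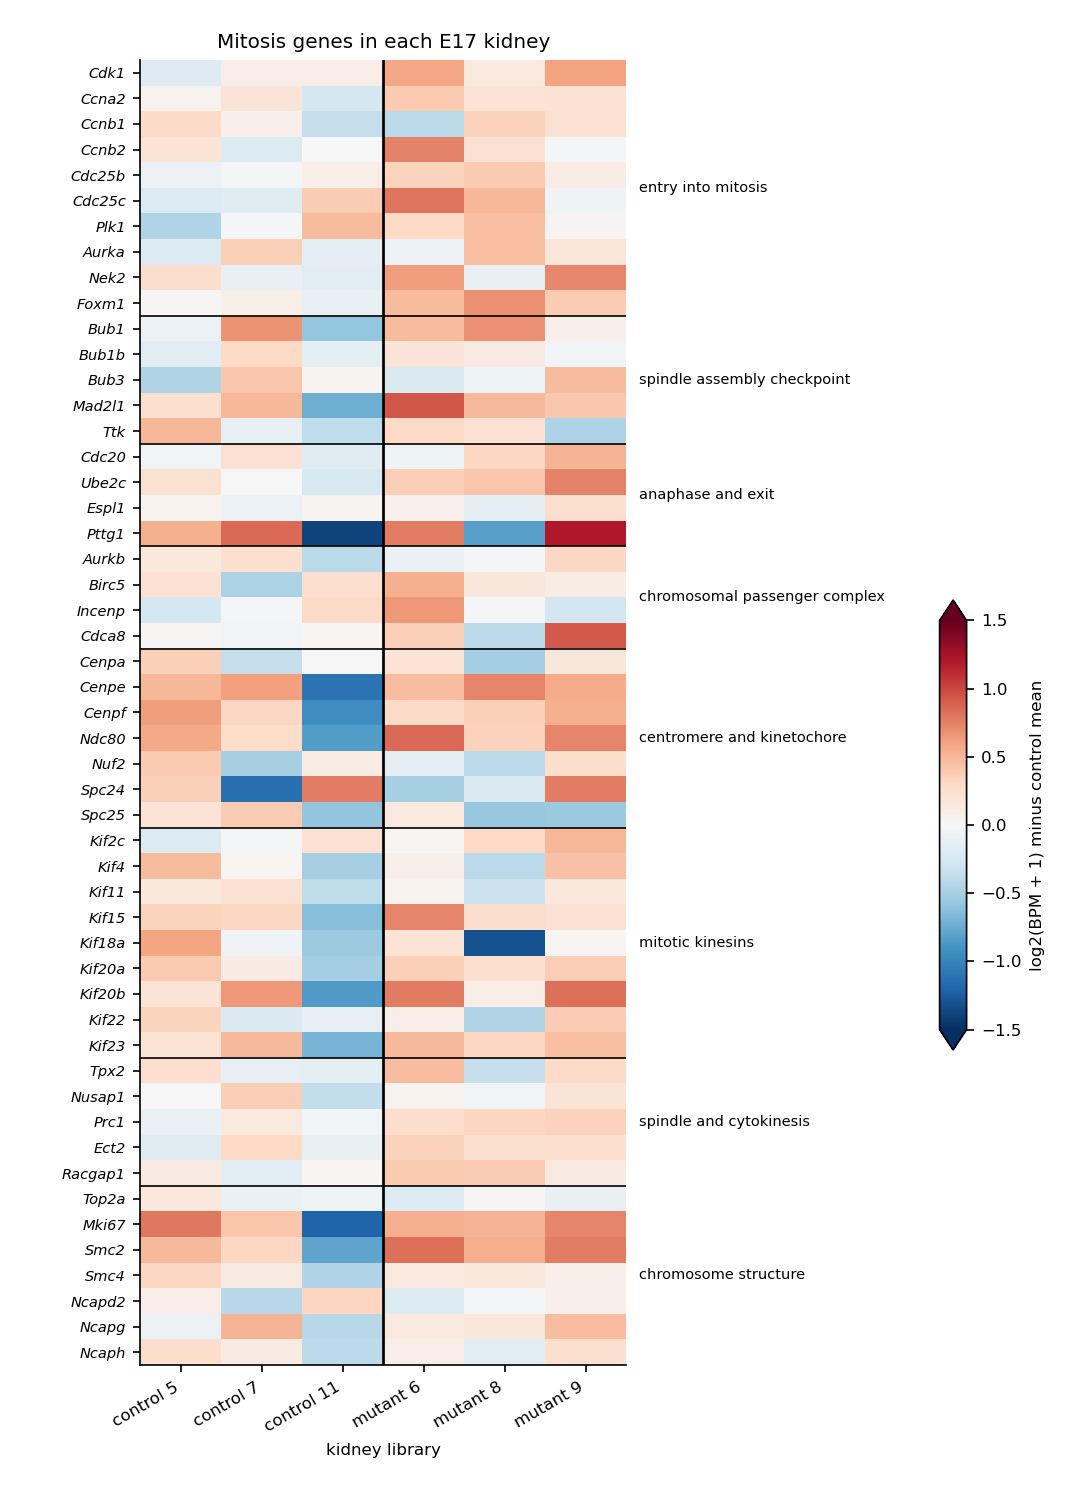
Each row is 1 of the 51 genes and each column 1 kidney, and the colour is log2(BPM + 1) minus the control mean. The column of control 11 is blue for most checkpoint, kinetochore, kinesin and condensin genes, and the mutant columns are mostly red in the rows for entry into mitosis.

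**Figure D3:**
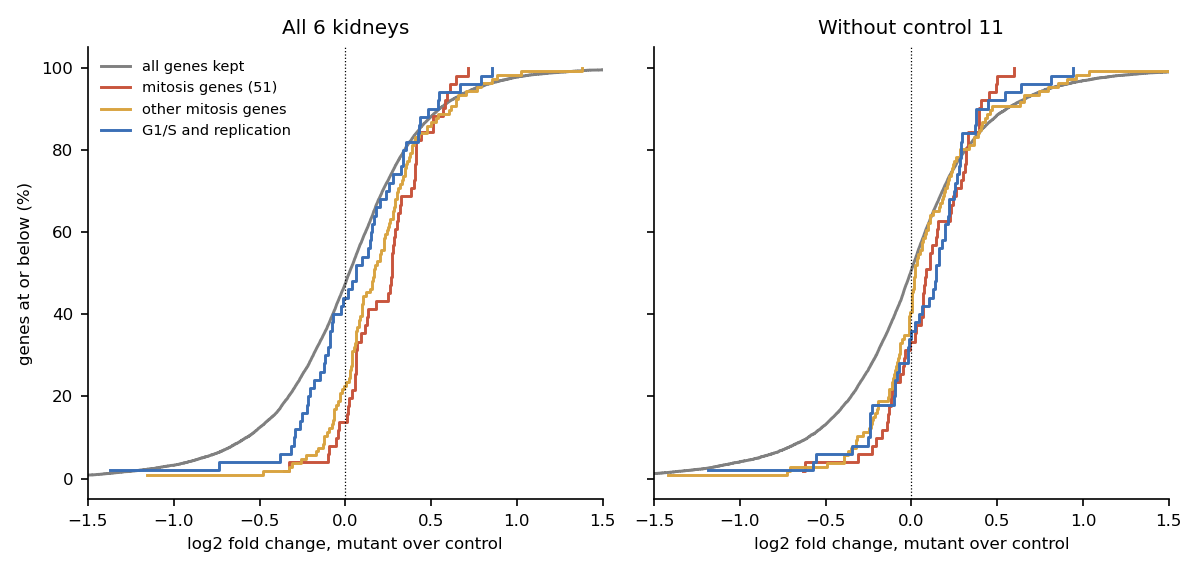
The share of genes (y axis, %) at or below each log2 fold change (x axis) is drawn for the 51 mitosis genes, other mitosis genes, G1/S and replication genes and all genes kept. The line of the 51 genes sits to the right of that of all genes in the 6 kidneys (medians 0.27 and 0.02) and lies closer to it without control 11 (0.09 and -0.01).

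Genes that drive entry into mitosis had log2 fold changes above 0 for 10 of 10 (9 without control 11 and 9 after the GC correction), with a median of 0.30. This group depended little on single kidneys, with 9 or 10 of 10 above 0 and medians of 0.27 to 0.36 when each kidney was left out in turn. Its mean, in log2 units relative to controls, was -0.03, 0.03 and 0.00 for controls 5, 7 and 11. For mutants 6, 8 and 9 the same mean was 0.38, 0.33 and 0.24, so the groups did not overlap. Such separation was not unique to the entry genes. The mean of the spindle and cytokinesis genes also separated the genotypes, but barely. Its lowest mutant, mutant 8, stood at 0.112, just above its highest control, control 7, at 0.105. For every remaining role the kidney means of the genotypes overlapped. No test was made of a mean over chosen genes. In the sentences that follow, control values are in the order 5, 7, 11 and mutant values in the order 6, 8, 9.

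Cdk1, the kinase that triggers mitosis (chromosome 10, 69335146 to 69352938 in GENCODE M21, mm10), was at 110.1, 135 and 135 BPM in controls and 189, 139.7 and 191 BPM in mutants. All mutants lay above all controls, mutant 8 by little. The means were 127 ± 14.2 (SD, n = 3) and 173 ± 29.1 BPM, a log2 fold change of 0.44 (SE 0.22, 95% interval -0.01 to 0.89), which limma did not call (adjusted p = 0.887). It was 0.49 without control 11. After the GC correction it was 0.40 and the groups overlapped. Foxm1, a transcription factor that activates mitotic genes (chromosome 6, 128362967 to 128376146), was at 48.6, 51.0 and 44.1 BPM in controls and 66.7, 77.4 and 62.4 BPM in mutants. The groups were clearly apart, at 47.9 ± 3.52 and 68.8 ± 7.75 BPM, with a log2 fold change of 0.51 (SE 0.28, limma adjusted p = 0.887) that remained 0.45 without control 11. In this group these were the genes with the smallest unadjusted p (0.054 and 0.0715). Ccna2, the cyclin of S phase and early mitosis (chromosome 3, 36564865 to 36572150), was at 173, 189.9 and 139 BPM in controls and 218, 192 and 193 BPM in mutants (log2 fold change 0.27, SE 0.21). Cdc25b, a phosphatase that activates Cdk1 (chromosome 2, 131186949 to 131198497), was at 56.5, 59.1 and 64.6 BPM in controls and 75.8, 79.3 and 64.7 BPM in mutants (log2 fold change 0.28, SE 0.26). Both were without overlap, but by little. Ccna2 in control 7 and mutant 8, and Cdc25b in control 11 and mutant 9, were nearly level. Nek2, a centrosome kinase, was at 51.8, 39.9 and 38.7 BPM in controls and 66.8, 39.7 and 71.4 BPM in mutants, so that mutant 8 lay among the controls (log2 fold change 0.41, SE 0.30).

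The remaining entry genes overlapped between groups. Ccnb1, cyclin B1, had a log2 fold change of only 0.06, which turned to -0.12 without control 11, while Ccnb2, cyclin B2, had a log2 fold change of 0.32 both ways. Plk1, the polo-like kinase, had a log2 fold change of 0.27 (0.50 without control 11). Cdc25c, a related phosphatase, had a log2 fold change of 0.41 (0.60). Aurka, the centrosomal Aurora kinase, had a log2 fold change of 0.18 (0.11). Without control 11, Plk1 and Cdc25c also lay higher in mutants without overlap.

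**Figure D4:**
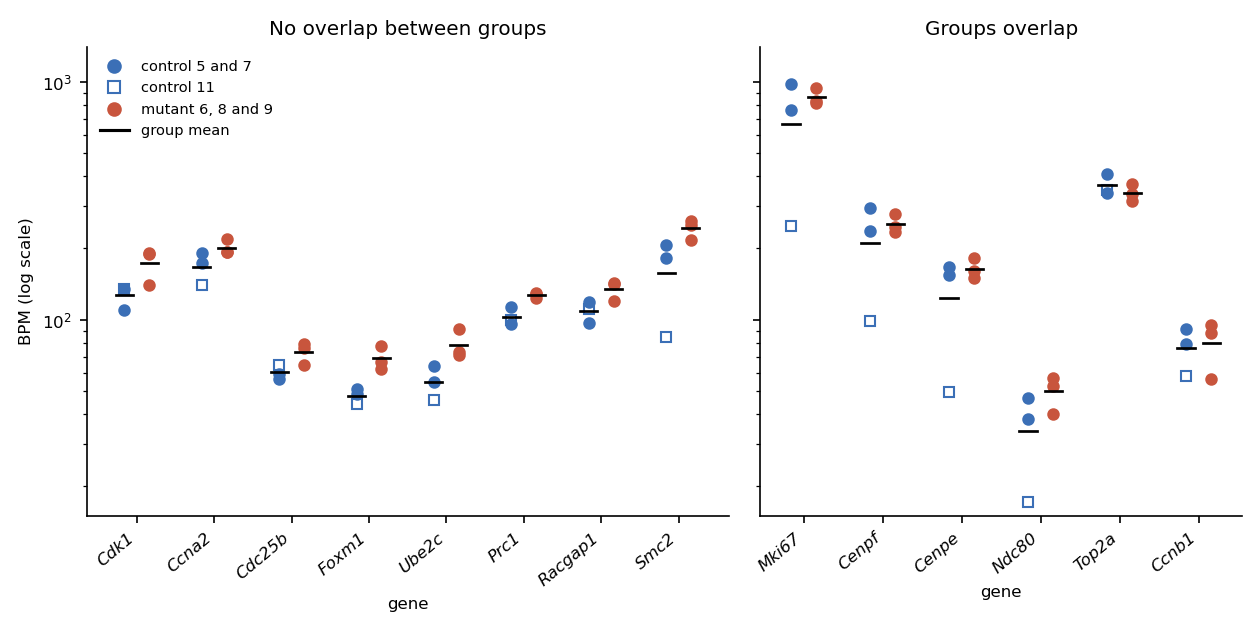
Points are BPM per kidney on a log axis, in controls (blue, control 11 as an open square) and mutants (red), and bars are group means. The 8 genes on the left have every mutant above every control; among 6 overlapping genes on the right, chosen after their values were seen, control 11 is far below the other controls for Mki67, Cenpf, Cenpe and Ndc80.

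The spindle assembly checkpoint genes had log2 fold changes above 0 for 5 of 5 (4 without control 11 and 4 after the GC correction), but with a median of 0.09, and the groups overlapped for each. The median was 0.08 without control 11 and 0.20 to 0.27 without control 5, control 7, mutant 6 or mutant 9. Mad2l1, whose protein Mad2 binds and inhibits Cdc20, was at 47.3, 56.6 and 23.7 BPM in controls and 77.2, 56.5 and 53.0 BPM in mutants. Control 11 was the lowest and mutant 8 was level with control 7, and the log2 fold change of 0.61 (SE 0.32, limma adjusted p = 0.887) was 0.24 without control 11. Bub1, a checkpoint kinase of the kinetochore, was at 56.8, 97.1 and 40.2 BPM in controls and 84.8, 97.7 and 63.8 BPM in mutants. The spread within controls was wider than the difference, and a log2 fold change of 0.41 (SE 0.29) became 0.12 without control 11. Bub1b, whose protein BubR1 sits in the mitotic checkpoint complex, was at 120.2, 165 and 121 BPM in controls and 152, 147 and 130.0 BPM in mutants (log2 fold change 0.09). Bub3, their shared partner, had a log2 fold change of 0.06, and Ttk, the kinase that starts the signal, one of 0.01.

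Of the genes of anaphase and mitotic exit, 4 of 4 had log2 fold changes above 0 (3 without control 11 and 4 after the GC correction), with a median of 0.32. That median was 0.12 without control 11 and 0.05 without mutant 9. Ube2c, the ubiquitin-conjugating enzyme of the anaphase-promoting complex (chromosome 2, 164769898 to 164778822), was at 64.0, 54.7 and 46.1 BPM in controls and 70.8, 73.2 and 91.9 BPM in mutants. It was the gene of this group without overlap. Its means were 54.9 ± 8.95 (SD, n = 3) and 78.6 ± 11.5 BPM and its log2 fold change 0.51 (SE 0.27, 95% interval -0.03 to 1.06, limma adjusted p = 0.887), or 0.39 without control 11. Cdc20, the activator of that complex, was at 48.3, 58.1 and 43.6 BPM in controls and 47.2, 61.8 and 71.1 BPM in mutants (log2 fold change 0.25, SE 0.29). Pttg1, securin, which restrains separase, was at 20.7, 26.2 and 4.75 BPM in controls and 24.5, 7.52 and 33.4 BPM in mutants. These values were scattered in both groups, and a log2 fold change of 0.38 (SE 0.59) turned to -0.31 without control 11. Espl1, separase itself, had a log2 fold change of 0.06.

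The chromosomal passenger complex, which corrects faulty attachments and later guides cytokinesis, had 4 of 4 genes with log2 fold changes above 0 (3 without control 11 and 4 after the GC correction) and a median of 0.19. The median was 0.28 without control 11, the opposite direction of shift from most groups. Cdca8, the Borealin gene, was at 22.8, 21.8 and 23.0 BPM in controls and 29.0, 16.7 and 43.5 BPM in mutants. The controls were tight and the mutants lay on both sides of them (log2 fold change 0.29, SE 0.39), and the log2 fold change was -0.03 without mutant 9. Birc5, survivin, was at 17.9, 10.7 and 18.3 BPM in controls and 22.5, 17.3 and 16.5 BPM in mutants (log2 fold change 0.27, SE 0.43). Incenp, the scaffold, was at 23.8, 28.1 and 35.3 BPM in controls and 45.6, 28.0 and 23.4 BPM in mutants (log2 fold change 0.11, SE 0.36). All overlapped, as did Aurkb, the kinase of the complex, at 0.06 (-0.14 without control 11). With mutant 9 left out, 2 of the 4 were above 0.

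Centromere and kinetochore genes were the most mixed, with log2 fold changes above 0 for 4 of 7 (3 without control 11 and 4 after the GC correction) and a median of 0.02. Leaving out each kidney moved this median. It was -0.04, -0.13 and -0.15 when control 11, control 7 or mutant 9 was dropped, and 0.20, 0.28 and 0.19 when control 5, mutant 6 or mutant 8 was. Ndc80, the microtubule-binding subunit of the outer kinetochore, was at 47.0, 38.1 and 17.1 BPM in controls and 57.2, 40.3 and 52.8 BPM in mutants. Cenpe, a kinesin of the kinetochore, was at 154, 167 and 49.9 BPM in controls and 150.5, 181 and 160.3 BPM in mutants. In both, control 11 lay far below the rest. The log2 fold change of Ndc80 was 0.64 (SE 0.34) and 0.22 without control 11, and that of Cenpe 0.58 (SE 0.42) and 0.03. Cenpf, a large kinetochore protein that accumulates in G2, was at 294, 236 and 99.2 BPM in controls and 233, 244 and 279 BPM in mutants, and its log2 fold change of 0.40 was -0.07 without control 11. Within the same complex the log2 fold changes of subunits lay on both sides of 0: Nuf2, the partner of Ndc80, had a log2 fold change of -0.09, Spc24 one of 0.02, and Spc25 one of -0.33. Spc25 was at 95.0, 108 and 54.6 BPM in controls and 91.4, 55.3 and 55.8 BPM in mutants, and without control 11 it lay lower in all mutants (log2 fold change -0.62). Cenpa, the centromeric histone, had a log2 fold change of -0.04.

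The mitotic kinesins, motors that build the spindle and move chromosomes, had log2 fold changes above 0 for 7 of 9 (5 without control 11 and 6 after the GC correction), with a median of 0.27, and their groups overlapped throughout. The median was 0.07 without control 11 and 0.16 without mutant 9. Kif20b, a motor of cytokinesis, was at 51.5, 70.3 and 24.3 BPM in controls and 77.4, 47.7 and 80.1 BPM in mutants (log2 fold change 0.57, SE 0.33). Kif23, the motor of centralspindlin, was at 104, 127 and 55.4 BPM in controls and 126, 112 and 124 BPM in mutants (log2 fold change 0.41, SE 0.26). Kif20a, which brings passenger proteins to the midzone, was at 171, 142 and 90.7 BPM in controls and 166, 155 and 169 BPM in mutants (log2 fold change 0.33, SE 0.23). For Kif23 and Kif20a the mutants lay within the range of the controls, and for Kif20b mutants 6 and 9 exceeded every control. Control 11 was the lowest kidney for all 3, and without it the log2 fold changes were 0.14, 0.07 and 0.07. Kif15, which helps keep the spindle bipolar, had a log2 fold change of 0.41 (0.09). The depolymerase Kif2c had a log2 fold change of 0.27 (0.39, then without overlap), and Kif22, which pushes chromosome arms, had a log2 fold change of 0.01. Kif4, a chromosome-bound motor, had a log2 fold change of 0.04 (-0.21). The kinesins below 0 were Kif11, which slides spindle poles apart, at -0.04 (-0.23, then lower without overlap), and Kif18a, which damps chromosome movement, at -0.36 (-0.63).

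In the spindle and cytokinesis group 5 of 5 genes had log2 fold changes above 0 (4 without control 11 and 4 after the GC correction), with a median of 0.28. The median was 0.23 without control 11 and 0.13 after the GC correction. Prc1, the bundler of midzone microtubules (chromosome 7, 80294450 to 80316259), was at 95.6, 113 and 99.6 BPM in controls and 124, 129 and 130.2 BPM in mutants. Its mutants were tight and all above the controls, with means of 103 ± 9.34 (SD, n = 3) and 127 ± 3.45 BPM. The log2 fold change was 0.31 (SE 0.23, limma adjusted p = 0.908), or 0.29 without control 11. After the GC correction it was 0.20 and the groups overlapped. Racgap1, the partner of Kif23 in centralspindlin (chromosome 15, 99620496 to 99651656), was at 119, 96.7 and 111 BPM in controls and 143, 141 and 119 BPM in mutants (log2 fold change 0.30, SE 0.23, and 0.32 without control 11). Its groups did not overlap either, though control 5 and mutant 9 were nearly level, and they overlapped after the GC correction. Ect2, the exchange factor that activates RhoA for the cleavage furrow, was at 69.2, 96.9 and 73.1 BPM in controls and 100.4, 93.7 and 94.4 BPM in mutants (log2 fold change 0.28, SE 0.25). Control 7 lay above 2 of the mutants. Tpx2, the activator of Aurora A, had a log2 fold change of 0.13, and Nusap1, a spindle-bundling protein, one of 0.07 (-0.12 without control 11).

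Chromosome structure genes had log2 fold changes above 0 for 5 of 7 (3 without control 11 and 4 after the GC correction), with a median of 0.13. That was -0.01 without control 11, 0.03 after the GC correction, and 0.21 and 0.20 without control 5 and control 7. Smc2, the ATPase core of condensin (chromosome 4, 52439243 to 52488260), was at 207, 182 and 84.2 BPM in controls and 261, 215 and 251 BPM in mutants. Every mutant lay above every control, with control 11 well below the other controls. The means were 158 ± 64.9 (SD, n = 3) and 243 ± 23.9 BPM, with a log2 fold change of 0.71 (SE 0.26, 95% interval 0.18 to 1.24, unadjusted p = 0.0107, limma adjusted p = 0.854). Without control 11 it was 0.31, and the unadjusted limma p was then above 0.05. The partners of Smc2 lay closer to 0: Smc4 had a log2 fold change of 0.13, Ncaph one of 0.06 and Ncapd2 one of -0.05. Ncapg, a condensin I subunit, was at 55.3, 84.2 and 44.1 BPM in controls and 65.2, 66.8 and 81.9 BPM in mutants (log2 fold change 0.26, SE 0.28, and 0.05 without control 11).

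Mki67 (chromosome 7, 135689784 to 135716361), the usual marker of cycling cells, was at 982, 758 and 247 BPM in controls and 828, 813 and 944 BPM in mutants. Control 5 lay above and control 7 below all mutants, and control 11 was far below the rest. The log2 fold change of 0.59 (SE 0.59, 95% interval -1.02 to 2.20) became -0.01 without control 11. Top2a, topoisomerase II alpha, which untangles sister chromatids, was at 408, 342 and 350.5 BPM in controls and 316, 371 and 339 BPM in mutants. It overlapped and was slightly lower in mutants on average, with a log2 fold change of -0.10 (SE 0.19).

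**Figure D5:**
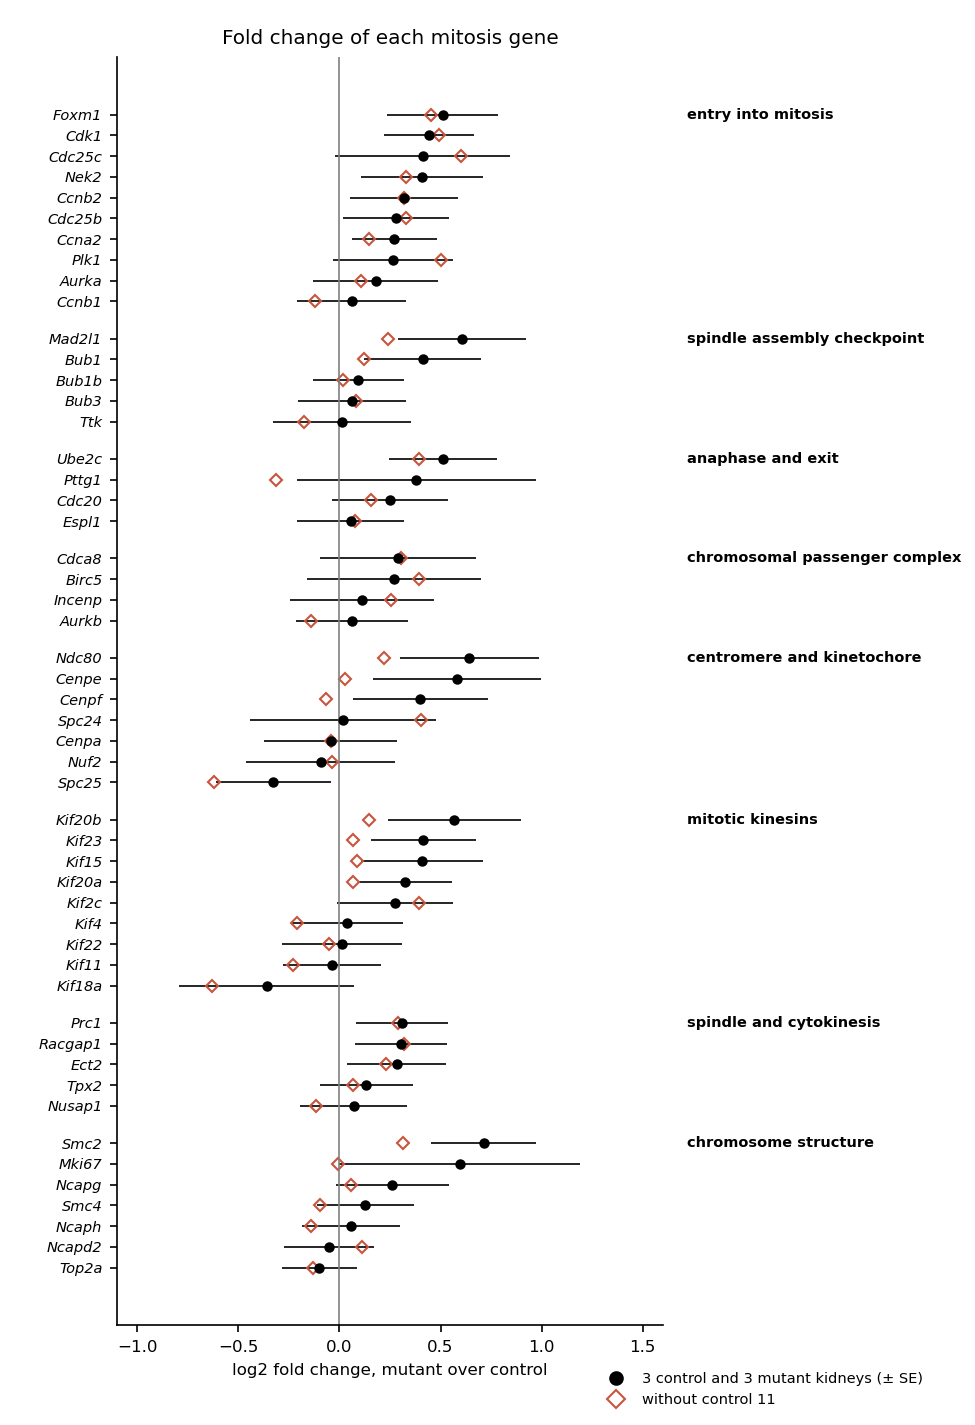
Log2 fold change of each of the 51 genes, mutant over control (x axis), by role: filled points use all 6 kidneys with their SE, and open diamonds leave out control 11. The diamonds lie well to the left of the points for Mki67 (0.59 to -0.01), Cenpe (0.58 to 0.03) and Smc2 (0.71 to 0.31), and near them for Cdk1 (0.44 and 0.49) and Foxm1 (0.51 and 0.45).

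Genes of the same pathway outside the 51 also lay mostly above 0. Of 107 other mitosis genes, 106 passed the filter (Ccnb3 did not), 82 (77.4%) were above 0 with a median of 0.17, and 9 (8.49%) lay higher and 1 (0.943%) lower without overlap, against 6.10% and 5.12% of all genes. Without control 11 the count above 0 was 63 and the median 0.02. None passed the adjusted limma test in the 6 kidneys. At an unadjusted limma p below 0.05 there were 4 of the 106 higher and 1 of the 106 lower, against 5.60% of all genes in either direction. Fbxo5, whose protein Emi1 inhibits the anaphase-promoting complex, was at 26.5, 45.0 and 24.0 BPM in controls and 67.1, 70.7 and 53.8 BPM in mutants. Every mutant was above every control, by a log2 fold change of 1.02 (SE 0.31, limma adjusted p = 0.566), or 0.86 without control 11. The others with the smallest p on the higher side, by log2 fold change, were the spindle pole gene Aspm at 0.71 (0.28 without control 11), Cenpp at 1.38 (1.58), the kinase gene Mastl at 0.77 (0.66) and the checkpoint gene Zwilch at 0.85 (0.80). On the lower side, by log2 fold change, were the MuvB subunit genes Lin52 at -1.15 and Lin54 at -0.48, the cohesin acetyltransferase gene Esco1 at -0.31, Cdca3 at -0.23 and Cenpo at -0.33.

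Genes of the earlier phases of the cycle lay on both sides of 0. Of 50 G1/S and replication genes, 28 (56.0%) were above 0 with a median of 0.06. Here leaving out control 11 gave 32 above 0 and a median of 0.14. None passed the adjusted limma test, and 5 of the 50 lay higher and 3 of the 50 lower without overlap, against 6.10% and 5.12% of all genes. Cyclin E2 (Ccne2) had a log2 fold change of 0.85, the nucleotide enzyme gene Dut one of 0.55, the GINS subunit genes Gins4 and Gins3 values of 0.67 and 0.79, and the clamp loader gene Rfc1 one of 0.43. The licensing gene Cdt1 had a log2 fold change of -1.37, the polymerase gene Pold1 one of -0.73, the ligase gene Lig1 one of -0.38, Rfc5 one of -0.30 and cyclin D1 (Ccnd1) one of -0.21. The difference between the mitosis and the G1/S genes was not tested.

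Cell type markers were summed in each kidney. Proximal tubule markers were below 0 for 6 of 6, with sums of 6152 to 7553 BPM in controls and 3654 to 5261 BPM in mutants, without overlap. Ureteric tip markers were above 0 for 4 of 4, at 205 to 241 BPM in controls and 247 to 367 BPM in mutants. These sums were also without overlap, though by little, and each of the 4 genes taken alone overlapped between groups. Nephron progenitor markers (4 above and 2 below 0) summed to 162 to 191 BPM in controls and 168 to 254 BPM in mutants. Within that list Six2 and Eya1 were higher, and Cited1 and Meox1 lower, in every mutant than in every control. Osr1 and Crym overlapped. Stroma markers (3 above, 2 below) summed to 584 to 718 BPM in controls and 641 to 932 BPM in mutants. Endothelial markers lay at 665 to 927 BPM in controls and 813 to 844 BPM in mutants, and leukocyte markers at 51.3 to 66.4 BPM and 48.0 to 73.7 BPM. Erythroid markers (5 of 7 found) lay at 1062 to 1473 BPM and 1041 to 1929 BPM. Skeletal muscle markers reached 276 BPM in mutant 9 and at most 10.5 BPM elsewhere. Of 4 adrenal markers 3 were at 0 in every library, with sums of at most 3.84 BPM. Gonad markers summed to at most 39.7 BPM, in control 5, all of it Sox9. Amh, Dazl, Ddx4 and Inhba each reached at most 2.46 BPM in any library. The part of cell type makeup in the mitosis values was not tested.

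In the authors' deposited table, which compares unlogged values, the ratio of mutant to control means was above 1 for 43 of the 51 genes (84.3%), against 62.8% of all 23219 symbols, with a median of 1.20 against 1.04. The authors' deposited table gives an unadjusted p below 0.05 for 3 of the 51 (5.88%): Prc1 (ratio 1.24, p = 0.0128), Foxm1 (ratio 1.44, p = 0.0131) and Ube2c (ratio 1.43, p = 0.0480). That table gives one for 760 of all symbols (3.27%). Only 17409 of the 23219 symbols had coverage in any library. For the rest the ratio is set by the smallest value of each column. The all-symbol figures of that table are therefore not a like background for the 51 genes, which were all covered.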

How the data were processed

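Per the labels' protocols, total RNA of E17 kidneys was depleted of ribosomal RNA and made into barcoded libraries with Ion Total RNA-seq kits. Per the submitters' processing notes, mm10 and bedtools were used; neither a version nor a role is named. The aligner, annotation, read filters and use of strand were not given in the sources used here. Deposited values are a coverage signal per gene symbol: the authors' values equal covered bases plus 1, times a factor per library, as read from the values (100% whole after division by the floor of each column, tolerance 0.001). The deposited ratio is the authors' mutant mean over control mean, and the authors' deposited p-value is unadjusted. Covered bases are not reads, so read depth is unknown and no count test was run. Without strand, overlapping genes cannot be told apart.

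The factor was removed and covered bases scaled to 1000000 per library (BPM). A gene was kept when 3 or more libraries reached 1 BPM. Mutant was compared with control on log2(BPM + 1) in limma 3.58.1 (R 4.3.3) with trend and robust options, two-sided, with Benjamini-Hochberg adjustment over 13977 genes at 0.05. Fold changes on that scale understate the change of low genes. The fit was tested on simulated data. Coordinates, exon lengths and GC content are from GENCODE M21 (21627 of 23219 symbols found). The members and all gene lists were chosen with earlier results of these data known, so no test was made of a list. Values by kidney are given for genes without overlap and for the 3 genes of each role with the smallest p, and also for Cenpf and Top2a, which were chosen after their values were seen; other genes are named by the 5 smallest p in each direction. Alternatives were 2 scalings, 2 filters, 2 pseudocounts, limma without trend, sample weights, totals without erythroid genes, each kidney left out and control 11 with mutant 6 left out; the GC correction (a lowess trend on transcript GC per library) was chosen after seeing the data.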

Additional observations from a re-analysis of the deposited data

How the results depend on the processing

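No paired analysis was possible because the groups share no replicate numbers. None of the 51 genes passed the adjusted limma test under any of the 17 alternatives. Over all genes, limma called 1 with quantile normalization, 1 without the trend, 4 with sample weights, 22 without control 11 and mutant 6, and 0 to 8 with 1 kidney left out (8 without control 11). The count of the 51 genes without overlap, in either direction, was 5 (9.80%, against 11.0% of all genes) with quantile normalization and 15 (29.4% against 35.4%; 12 higher, 3 lower) without control 11 and mutant 6. With 1 kidney left out it was 10 to 16 (19.6 to 31.4%, against 20.1 to 22.8%), compared with 8 (15.7% against 11.2%) in all 6 kidneys. The count above 0 was 34 to 46 and the median 0.09 to 0.27 with 1 kidney left out. The direction held for 27 of the 51 genes in every alternative run and turned in at least 1 for 24. The cause was not tested.

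With the GC correction, the log2 fold change turned to -0.042 for Ccnb1, -0.10 for Ttk, -0.0041 for Kif22, -0.058 for Nusap1 and -0.020 for Smc4. Without control 11 and mutant 6, the log2 fold change turned to -0.028 for Bub1b, -0.31 for Ttk, -0.50 for Pttg1, -0.056 for Aurkb, -0.012 for Incenp, -0.012 for Cenpf, -0.23 for Kif4, -0.074 for Kif15, -0.095 for Kif22, -0.10 for Tpx2, -0.11 for Nusap1, -0.10 for Smc4, 0.18 for Ncapd2 and -0.16 for Ncaph. With quantile normalization, the log2 fold change turned to -0.011 for Ttk and -0.027 for Kif22. With median-of-ratios scaling, the log2 fold change turned to -0.010 for Ttk, -0.0053 for Spc24 and -0.012 for Kif22. With sample weights, the log2 fold change turned to -0.10 for Ttk, -0.044 for Kif4, -0.0060 for Kif22, 0.031 for Ncapd2 and -0.015 for Ncaph. With 1 kidney left out it ranged from -0.14 to 0.18 for Aurkb, -0.16 to 0.27 for Bub3, -0.12 to 0.29 for Ccnb1, -0.028 to 0.64 for Cdca8, -0.22 to 0.19 for Cenpa, -0.067 to 0.71 for Cenpf, -0.036 to 0.15 for Espl1 and -0.16 to 0.31 for Incenp. It was -0.23 to 0.11 for Kif11, -0.64 to 0.12 for Kif18a, -0.17 to 0.24 for Kif22, -0.21 to 0.27 for Kif4, -0.0053 to 0.99 for Mki67, -0.26 to 0.11 for Ncapd2, -0.14 to 0.19 for Ncaph and -0.34 to 0.10 for Nuf2. The range was -0.12 to 0.26 for Nusap1, -0.31 to 0.98 for Pttg1, -0.094 to 0.28 for Smc4, -0.55 to 0.40 for Spc24, -0.033 to 0.37 for Tpx2 and -0.17 to 0.26 for Ttk.

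Depth in reads is unknown, so no limit of detection was set for the low genes.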
